A study of Homo sapiens with 18 samples.

Results

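The comparison was between 9 libraries from clone-derived cultures (Jag1KO, Jag1KO+rescue and Jag1KO+ctrl) and 9 libraries from parental-derived cultures (WT, siCtrl and siJag1), which are all 18 libraries of the series. Libraries were assigned to the origins by their labels alone. The level of the edited gene JAG1 was carried in the model as a second term. It was set as high in WT, siCtrl and Jag1KO+rescue and as low in Jag1KO, Jag1KO+ctrl and siJag1. The difference between origins was thus read apart from this label. The low group joins stable knockout with siRNA given shortly before seeding. Any difference between them in the extent or duration of JAG1 loss cannot be told apart from origin. Of the 21411 genes in the tables, 12803 had more than 1 CPM (the deposited read count of a gene scaled to the depth of the library) in at least 9 of the 18 libraries and were tested.

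All cultures were of MDA-MB-231, a human triple-negative breast cancer (TNBC) cell line, grown as spheroids for 7 days after 50000 cells had been seeded in Matrigel at 2 mg/ml. WT is the unedited line. The siCtrl and siJag1 cells are WT cells given a nontargeting siRNA or siRNAs to JAG1 shortly before seeding. Jag1KO is a pool, in equal parts, of clones that were each grown from 1 sorted cell after transfection with Cas9 and a guide to JAG1, and the Jag1KO+rescue and Jag1KO+ctrl cells are that pool carrying a plasmid with JAG1 or an empty plasmid under drug selection. The pool was made once. Editing, sorting, growth from single cells, pooling and later passage therefore cannot be told apart, and in 2 of the 3 clone-derived conditions plasmid transfection and selection come on top of them.

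Jagged1, the protein of JAG1, is a membrane ligand that activates Notch receptors on neighboring cells. A cancer cell line is a mixed population whose cells differ in gene copy number, chromatin state and gene expression. Growth from a single cell can pass part of the state of that cell on to its progeny. A pool of clones thus samples the line through few founders. Cancer-testis antigens are proteins normally restricted to germ cells, and many of their genes lie on the X chromosome in families of close copies, are silenced by promoter methylation in somatic tissue, and are switched on in a patchy, heritable manner in tumor cells.

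Between 10330581 and 18327890 reads were counted on genes per library, so that 3 reads corresponded to between 0.162 and 0.287 CPM. JAG1 itself was at 513 ± 76.7 CPM in WT, 532 ± 92.4 in siCtrl and 612 ± 67.9 in Jag1KO+rescue (mean ± SD over 3 libraries), against 157 ± 45.1 in Jag1KO, 131 ± 18.7 in Jag1KO+ctrl and 167 ± 35.7 in siJag1. Its transcript was still counted in the knockout libraries, and with the JAG1 term in the model its origin effect was 0.00 ± 0.13 (log2 fold change ± SE). The genes VIM, AXL, CD44 and ZEB1, markers of this mesenchymal-like line, were expressed in every library of both origins. SPARC, the other marker of that list, exceeded 1 CPM in too few libraries to be tested. Of the markers of other cell types, PTPRC and CD3E (leukocytes), DCN, LUM, PDGFRA and COL1A2 (fibroblasts) and VWF and CDH5 (endothelium) stayed below 1 CPM in every library. Other members of these lists were expressed in both origins without being called, CD68 at 88.9 to 209 CPM, KDR at 5.74 to 16.9, PECAM1 at 0.954 to 15.1 and COL1A1 at 2.66 to 10 CPM over the 18 libraries. The summed levels were 89.1 to 209 CPM in clone-derived and 99.1 to 158 in parental-derived libraries for the leukocyte list, 15.1 to 23 and 12.4 to 19.3 for the endothelial list, and 4.57 to 10.5 and 3.17 to 10.9 for the fibroblast list. In a principal component analysis the second component, which held 14.6% of the variance, separated the origins completely (from 3.83 to 27.7 in clone-derived and from −18.6 to −5.65 in parental-derived libraries). The first, with 47.3%, did not.

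With the quasi-likelihood test of edgeR, an FDR below 0.05 and a fold change above 1.5, 174 genes were higher (1.36% of those tested) and 141 lower (1.1%) in clone-derived cultures. In the same model the JAG1 term called 14 genes higher (0.109%) and 8 lower (0.0625%) with JAG1. For 62 genes every clone-derived library lay above every parental-derived library (0.484%), and for 65 every one lay below (0.508%). Of the called genes, 56 of the 174 and 40 of the 141 were separated in this way, and in 161 and 130 of them all 9 pairings of a clone-derived with a parental-derived condition mean went in the called direction, which 1875 of all tested genes (14.6%) did in either direction. The p values treat libraries as replicates although they are nested in 3 conditions per origin and come from 1 derivation. When each condition was reduced to 1 mean, limma called 39 genes higher and 22 lower. Without the 3 Jag1KO+rescue libraries, the only clone-derived ones with high JAG1, 96 and 35 were called, without Jag1KO+rescue replicate 3 alone 136 and 87, and among JAG1-low libraries alone 33 and 13.

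The plot of 24 genes shows their level in each library. They are the 12 genes with the largest change in each direction among called, separated genes with a mean of at least 5 CPM in the higher origin, so the split between the origins was fixed by their choice.

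**Figure D1:**
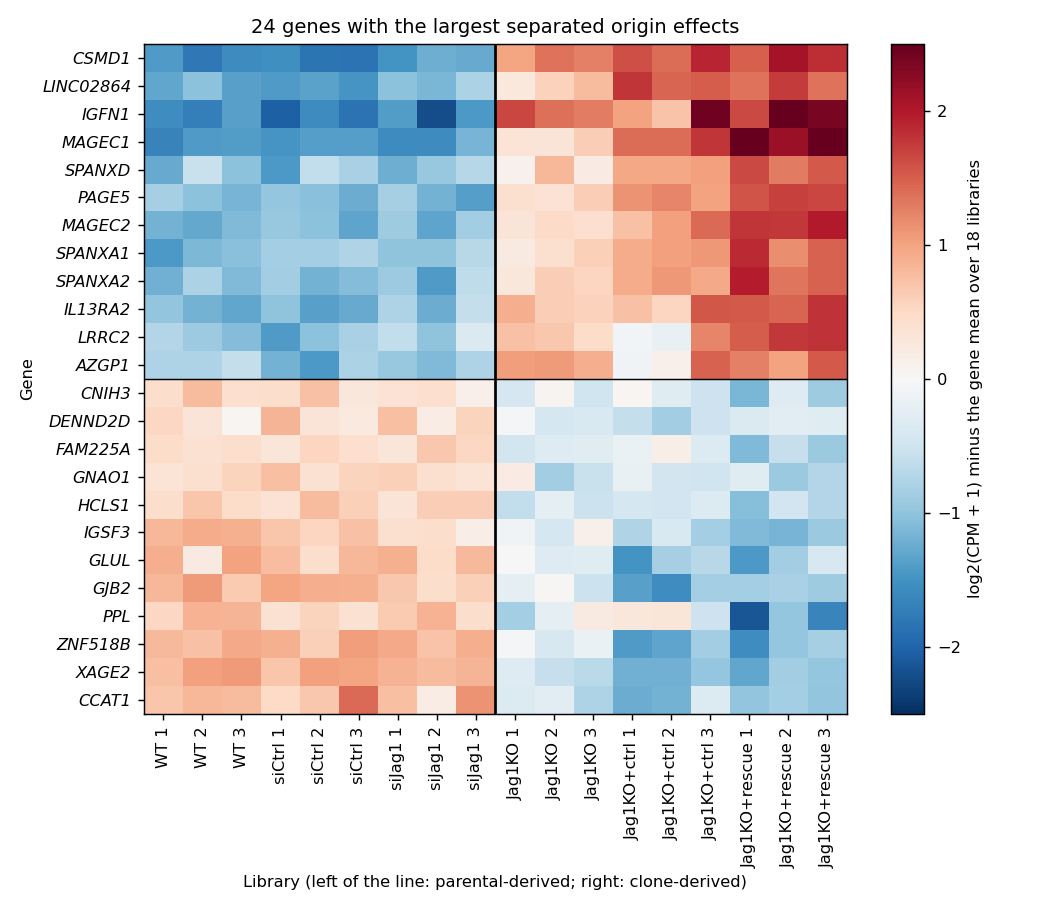
Heat map of 24 genes (rows; called, separated and with a mean of at least 5 CPM in the higher origin) in 18 libraries (columns, replicate number after the condition), with parental-derived libraries left of the vertical line. Color is log2(CPM + 1) minus the mean of the gene over all libraries, red above and blue below; the 12 upper genes are red in the clone-derived libraries and the 12 lower genes in the parental-derived libraries, and the upper genes are mostly deeper red in Jag1KO+rescue than in Jag1KO.

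A core of 33 genes kept its call and direction in each of 37 alternative fits (other tests and normalizations, other terms, each library and each condition left out, each JAG1 level alone, and 1 mean per condition). Of these genes, 21 were higher and 12 lower in clone-derived cultures, 30 were separated without overlap, and 17 lay on the X chromosome, which holds 3.56% of the tested genes. The group was put together after its values were seen. Of all called genes, 8 of the 174 and 9 of the 141 never exceeded 1 CPM in any library of the lower origin. They passed the filter only through the other origin, so their separation was fixed in advance. In the core these were LINC01602, LINC02864, CHMP1B2P, ROBO2, LSR, PLCB1, NAP1L2, CSAG3, MAGEA12 and MAGEB2, whose separation is therefore no support for it. Among parental-derived libraries CSMD1 exceeded 1 CPM only in siJag1 replicate 2 (1.03). MAGEA2B did so among clone-derived libraries only in Jag1KO+rescue replicate 1 (1.23). Outside the core, FOXA1 did so among parental-derived libraries only in WT replicate 1 (1.26). The separation of CSMD1, MAGEA2B and FOXA1 was thus nearly fixed by the filter as well.

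Cancer-testis antigens made up 12 of the 33. Of 54 such genes in the tables, 18 passed the filter on low values, all of them on the X chromosome, and 9 were called higher and 4 lower (72.2%, against 2.46% of all tested genes called in either direction). Their median log2 fold change was 0.87, against 0.01 over all genes. MAGEB2 and MAGEA12 stayed below 1 CPM in every clone-derived library and passed the filter only through the parental-derived ones, so they had to differ, and the share and the median are no support for the list. The list was written with earlier results of these data known. Its genes come in families of near-identical copies, so that reads may be split among SPANXA1, SPANXA2, SPANXB1, SPANXC and SPANXD, and likewise within the MAGEA and XAGE families, and values of single copies are uncertain.

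The sequences around the start sites of 5 of these genes are shown because they went in opposite directions on 1 chromosome. Each runs 5′ to 3′ on the strand of the gene, from 250 bases before to 50 bases after the start site in RefSeq (GRCh38.p14), with every CG pair, the site of DNA methylation, in capitals. MAGEC1 (chrX:141903644-141903943, plus strand), PAGE5 (chrX:55220096-55220395, plus strand) and MAGEC2 (chrX:142205241-142205540, minus strand) were higher in clone-derived cultures, and XAGE2 (chrX:52368771-52369070, plus strand) and MAGEA12 (chrX:152733507-152733806, plus strand) were lower.
MAGEC1: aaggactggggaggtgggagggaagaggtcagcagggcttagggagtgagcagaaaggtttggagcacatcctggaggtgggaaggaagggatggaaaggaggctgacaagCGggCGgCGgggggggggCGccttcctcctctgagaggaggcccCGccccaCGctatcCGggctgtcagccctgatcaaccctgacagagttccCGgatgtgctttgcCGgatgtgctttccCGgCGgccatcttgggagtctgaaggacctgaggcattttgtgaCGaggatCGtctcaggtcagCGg
MAGEC2: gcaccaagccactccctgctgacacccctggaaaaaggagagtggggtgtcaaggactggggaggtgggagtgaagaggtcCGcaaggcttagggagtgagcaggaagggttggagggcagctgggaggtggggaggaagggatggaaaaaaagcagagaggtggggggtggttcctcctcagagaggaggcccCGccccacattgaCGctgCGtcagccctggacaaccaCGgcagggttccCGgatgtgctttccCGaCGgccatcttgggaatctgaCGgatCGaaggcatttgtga
PAGE5: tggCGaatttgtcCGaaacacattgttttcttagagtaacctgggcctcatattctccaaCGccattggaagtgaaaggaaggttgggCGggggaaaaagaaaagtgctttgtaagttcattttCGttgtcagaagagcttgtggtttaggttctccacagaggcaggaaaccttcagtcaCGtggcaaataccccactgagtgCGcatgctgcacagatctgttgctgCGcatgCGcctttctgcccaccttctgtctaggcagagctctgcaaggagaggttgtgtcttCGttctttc
XAGE2: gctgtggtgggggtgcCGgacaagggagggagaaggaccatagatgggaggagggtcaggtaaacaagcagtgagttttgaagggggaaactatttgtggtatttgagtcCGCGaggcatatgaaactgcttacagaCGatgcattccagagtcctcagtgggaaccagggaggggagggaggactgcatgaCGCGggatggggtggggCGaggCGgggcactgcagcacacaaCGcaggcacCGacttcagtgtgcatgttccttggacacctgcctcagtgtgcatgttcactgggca
MAGEA12: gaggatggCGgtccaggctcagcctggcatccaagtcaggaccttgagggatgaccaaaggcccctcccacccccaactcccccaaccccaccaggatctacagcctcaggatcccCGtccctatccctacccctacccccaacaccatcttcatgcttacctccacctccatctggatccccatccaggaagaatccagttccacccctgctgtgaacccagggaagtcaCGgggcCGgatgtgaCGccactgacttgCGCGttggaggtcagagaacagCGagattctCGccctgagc

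These windows hold 14 CG pairs in MAGEC1, 10 each in MAGEC2, PAGE5 and XAGE2, and 9 in MAGEA12. Over the 13 called cancer-testis genes the median was 10 pairs, over the 10168 tested genes with a sequence 26, and over all 27305 windows of the reference 14. The count of CG pairs in the windows of the 3 higher genes (10 to 14) thus overlapped that of the 2 lower genes (9 and 10). At least as many pairs as in MAGEC1 stood in 50.1% of all windows. Methylation was not measured.

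MAGEC1, the largest of the X-linked MAGE proteins, ranged from 19.8 through a median of 43.2 to 93.4 CPM in the 9 clone-derived libraries and from 4.23 through 5.26 to 6.5 in the 9 parental-derived ones (log2 fold change 3.43 ± 0.25, FDR 4.89e-08). The condition means were 21.6 ± 2.73 CPM in Jag1KO, 47.7 ± 7.89 in Jag1KO+ctrl and 86.5 ± 11.2 in Jag1KO+rescue, while WT, siCtrl and siJag1 lay between 4.95 and 5.3. All 3 clone-derived conditions were thus far above the parental ones and differed among themselves. Its neighbor MAGEC2, a partner of a ubiquitin ligase, spanned 30.9 to 99.1 CPM (median 50.6) against 9.13 to 12.8 (median 10.8), with means of 32.7 ± 1.64 in Jag1KO, 52.7 ± 12.9 in Jag1KO+ctrl and 90.3 ± 7.61 in Jag1KO+rescue (2.50 ± 0.19, FDR 8.63e-08). For PAGE5 the libraries spanned 11.7 to 31.2 CPM (median 20.4) against 2.8 to 4.54 (median 3.78), a log2 fold change of 2.61 ± 0.16 (FDR 1.18e-08). The conditions of PAGE5 came in the same order, 12.6 ± 1.27, 20.4 ± 1.49 and 30 ± 1.37 CPM.

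The SPANX genes, which encode sperm nucleus proteins, were higher in all 5 tested members, each without overlap between origins. SPANXB1 spanned 256 to 544 CPM (median 356) in clone-derived against 116 to 169 (median 148) in parental-derived libraries (1.42 ± 0.12, FDR 1.57e-07). Of SPANXD the libraries gave 3.33 to 11.7 CPM (median 6.89) against 0.495 to 1.73 (median 1.08), with a log2 fold change of 2.83 ± 0.25 (FDR 4.75e-07). The effects of SPANXA1, SPANXA2 and SPANXC were 2.34, 2.32 and 1.53. MAGEA11, a coregulator of the androgen receptor, was also higher, at 16.4 to 31.7 CPM (median 21.8) against 8.22 to 12.7 (median 9.72).

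The 4 lower genes of this list were separated as well. MAGEB2 was nearly undetected in clone-derived cultures, with 0 to 0.3 CPM (median 0.154; 21 reads in all 9 libraries) against 2.61 to 5.46 CPM (median 3.65; 517 reads) in parental-derived ones (−4.56 ± 0.31, FDR 2.02e-08). XAGE2 spanned 1.64 to 4.18 CPM (median 2.29) against 9.48 to 12.5 (median 10.7), a log2 fold change of −2.16 ± 0.17 (FDR 1.11e-07). MAGEA12 was at 0.658 ± 0.197, 0.48 ± 0.158 and 0.539 ± 0.306 CPM in Jag1KO, Jag1KO+ctrl and Jag1KO+rescue, against 3.52 to 3.56 in the 3 parental-derived conditions. The adjacent MAGEA2B fell with it (−2.38), whereas MAGEA3 and MAGEA6, which lie on either side of them, had effects of 0.53 and 0.00 and were not called. MAGEA3 passed the FDR (0.000938) and missed only the fold threshold. So did XAGE1A (−0.54, FDR 0.0103) and XAGE1B (−0.49, FDR 0.048), which were lower. CSAG3, a gene interspersed among the MAGEA genes, was lower too (−2.63 ± 0.28, FDR 5.48e-06), at 0.0681 to 0.636 CPM against 1.7 to 2.81.

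**Figure D2:**
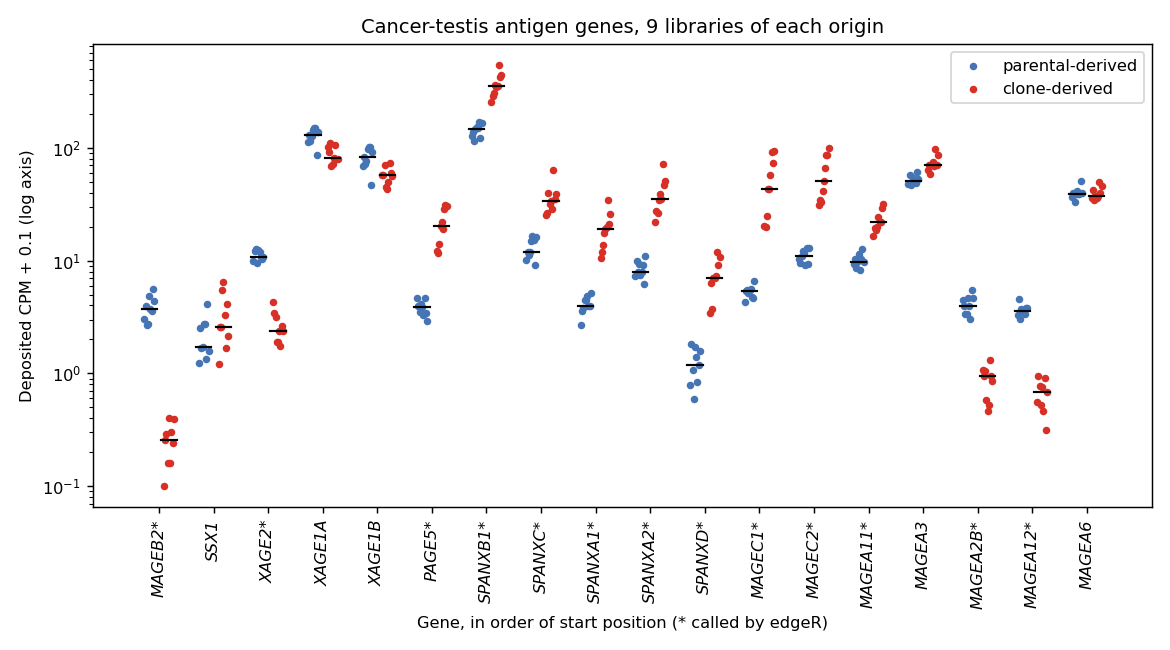
Deposited CPM plus 0.1 (vertical log axis) of 18 cancer-testis antigen genes, ordered by start position on the X chromosome, in 9 parental-derived (blue) and 9 clone-derived (red) libraries; a black bar is the median and a star marks a called gene. The points of the 9 genes from PAGE5 to MAGEA11 are higher in red, those of MAGEB2, XAGE2, MAGEA2B and MAGEA12 are lower in red, and those of SSX1 and MAGEA6 overlap.

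Other X-linked genes of the core were IL13RA2, CHMP1B2P, NAP1L2 and LDOC1. IL13RA2, the decoy receptor of interleukin-13, was at 69.3 to 169 CPM (median 90.2) in clone-derived and 18.1 to 31.3 (median 20.4) in parental-derived libraries (2.29 ± 0.18, FDR 9.85e-08). NAP1L2, a nucleosome assembly protein, was at 0.12 to 0.669 CPM against 1.33 to 4.27, and LDOC1 at 0.954 to 2.29 against 4.11 to 5.49. On the whole chromosome 18 of 456 tested genes were called higher and 17 lower (7.68%, against 2.46% of all tested genes). The median effect there was −0.0041.

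Outside the X chromosome, the genes with the largest increases were at low levels in parental-derived cultures. CSMD1, a giant membrane protein with complement-regulatory domains, was at 8.35 to 19 CPM (median 12.3) in clone-derived and 0.304 to 1.03 (median 0.636) in parental-derived libraries (4.34 ± 0.23, FDR 8.98e-10). IGFN1, an immunoglobulin-like and fibronectin domain protein of muscle, spanned 42.2 to 165 CPM (median 81.4) against 4.65 to 9.26 (median 7.89), with 71.1 ± 10.3 in Jag1KO, 78.5 ± 54.6 in Jag1KO+ctrl and 127 ± 42.2 in Jag1KO+rescue (3.73 ± 0.24, FDR 1.61e-08). The spread between replicates of IGFN1 was large within the plasmid-carrying conditions, but no library came near the parental range. The long noncoding RNA LINC02864 was at 3.07 to 10.8 CPM against 0.228 to 0.979. AZGP1, a secreted zinc-binding glycoprotein, was at 10.6 to 34.8 CPM (median 24.5) against 3.57 to 7.17 (median 6.09), and LRRC2, a leucine-rich repeat protein, at 4.97 to 22.7 (median 10.3) against 1.56 to 4.27 (median 2.63). LRRC2 lost its call among the JAG1-low libraries alone.

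Among core genes with lower levels in clone-derived cultures were PLCB1, a phospholipase C of G protein signaling, at 0.13 to 0.839 CPM against 1.9 to 4.3, and LSR, a receptor of tricellular junctions, at 0.191 to 0.541 against 1.13 to 2.48. GLI2, a transcription factor of Hedgehog signaling, was at 0.352 to 1.11 CPM against 0.99 to 2.45, with an overlap between the origins. HCLS1, an actin-binding substrate of Src-family kinases, was at 3.2 to 6.49 CPM (median 5.27) against 9.92 to 14.2 (median 12.2) (−1.28 ± 0.13, FDR 2.74e-06). These genes were low, and the values of PLCB1, LSR and GLI2 rest on few reads per library.

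The other large separated decreases were outside this core. GJB2, a connexin of gap junctions, was at 8.27 to 27 CPM (median 14.1) in clone-derived and 36.2 to 55.9 (median 47.4) in parental-derived libraries (−1.54 ± 0.20, FDR 4.76e-05). GLUL, glutamine synthetase, was at 6.3 to 19.7 CPM (median 11.9) against 23.2 to 40.7 (median 35.3), with a log2 fold change of −1.49 ± 0.20 (FDR 0.000104). ZNF518B, a zinc finger gene of chromosome 4, was at 2.73 to 9.72 CPM (median 4.99) against 15.5 to 21.6 (median 19.2), and the long noncoding RNA CCAT1 at 0.48 to 1.85 (median 0.919) against 2.97 to 8.3 (median 4.82). PPL, periplakin of the cornified envelope and desmosomes, averaged 1.09 ± 0.874 CPM in Jag1KO+rescue, 4.1 ± 1.82 in Jag1KO and 5.22 ± 1.81 in Jag1KO+ctrl, against 7.06 to 9 in the parental-derived conditions, and lost its call without the Jag1KO+rescue libraries (FDR 0.46 at the highest over the alternatives). The called decreases of IGSF3, GNAO1, DENND2D, FAM225A and CNIH3 lay between −1.46 and −0.96. All of these calls were lost among the JAG1-low libraries alone, and those of IGSF3 and CNIH3 also without the Jag1KO+rescue libraries.

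Extracellular matrix genes were affected in single members. Of 18 tested collagens 1 was called higher and 2 lower (16.7%, against 2.46% of all tested genes), with a median of −0.16. COL6A3, a chain of the beaded-filament collagen VI, was at 2.95 to 22.5 CPM (median 4.87) in clone-derived and 11.9 to 88 (median 73) in parental-derived libraries. These ranges overlapped, and the JAG1 term of COL6A3 was called as well (2.16, FDR 3.46e-07). With high JAG1 it averaged 18.1 ± 6.26 CPM in Jag1KO+rescue against 73.3 ± 10.4 in WT and 80.7 ± 7.14 in siCtrl, and with low JAG1 4.96 ± 0.228 in Jag1KO and 3.52 ± 0.897 in Jag1KO+ctrl against 16.5 ± 5.38 in siJag1. The origins thus differed at both levels (−2.03 ± 0.16, FDR 1.39e-07). COL18A1, the basement membrane collagen that yields endostatin, was lower (−1.38 ± 0.28, FDR 0.00502). Among the JAG1-low libraries alone it was lower without being called, with siJag1 at 25.8 ± 3.55 CPM, Jag1KO at 13.9 ± 1.6 and Jag1KO+ctrl at 21.4 ± 7.26. COL12A1, a collagen of fibril surfaces, was higher (0.70 ± 0.12, FDR 0.00156), at 60.7 to 102 CPM against 33.5 to 68.9. The calls of COL18A1 and COL12A1 were each lost without the Jag1KO+rescue libraries and with 1 mean per condition. That of COL12A1 was also lost among the JAG1-low libraries alone.

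Among the ADAMTS proteases, which cleave proteoglycans and procollagens, 2 of 11 tested genes were called higher and 1 lower. That is 27.3%, against 2.46% of all tested genes. ADAMTS1 was at 41.1 to 86.6 CPM (median 68.7) in clone-derived and 7.22 to 22.2 (median 15.1) in parental-derived libraries (2.13 ± 0.20, FDR 7.66e-07). ADAMTS9 was at 63.4 to 142 CPM (median 108) against 24.5 to 50.5 (median 39.3) (1.38 ± 0.16, FDR 1.57e-05). Both were separated without overlap and belong to the core. ADAMTS15 went the other way, at 3.11 to 14.1 against 8.53 to 21 CPM (−1.16 ± 0.26, FDR 0.0127). Its call was lost without the condition WT, siCtrl or Jag1KO+rescue, with 1 mean per condition and among the JAG1-low libraries alone. No gene was called among the 12 tested matrix metalloproteinases and their inhibitors, the 11 laminins and related basement membrane proteins, or the 5 cadherins. Of 15 integrins, ITGA11, a collagen receptor subunit, was called lower at 0.341 to 2.09 against 1.93 to 4.18 CPM, with a list median of −0.31. Thus 6.67% of the integrins were called, against 2.46% of all tested genes. The call of ITGA11 held in 22 of 37 alternative fits and was lost without any 1 replicate of WT, siCtrl or Jag1KO+rescue or without Jag1KO+ctrl replicate 3.

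Keratins, the intermediate filament proteins of epithelia, had 3 of 11 tested members lower and none higher, with a median of −0.46. That is 27.3% called, against 2.46% of all tested genes. KRT81 averaged 23.4 ± 5.45 CPM in Jag1KO, 12.8 ± 7.28 in Jag1KO+ctrl and 17.5 ± 1.77 in Jag1KO+rescue, against 50.4 ± 4.99 in WT, 54.8 ± 2.57 in siCtrl and 27.2 ± 8.9 in siJag1 (−1.09 ± 0.25, FDR 0.0153). The siJag1 cultures were thus nearer to the clone-derived ones than WT and siCtrl were. KRT7 (−0.76) and KRT79 (−1.29) were called with it, and none of the 3 calls held among the JAG1-low libraries alone, whereas KRT8 and KRT18 had effects of −0.13 and 0.02.

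Genes of major histocompatibility complex (MHC) class II, which present peptides to helper T cells, were lower in 5 of 11 tested members (45.5%, against 2.46% of all genes called in either direction), with a median of −0.89. HLA-DRA averaged 48 ± 13.9 CPM in Jag1KO, 27.3 ± 7.74 in Jag1KO+ctrl and 28.3 ± 9.73 in Jag1KO+rescue, against 53.7 ± 13.2 in WT, 54.3 ± 7.55 in siCtrl and 70 ± 8.53 in siJag1 (−0.92 ± 0.19, FDR 0.00765). The unselected Jag1KO pool was close to WT for HLA-DRA, and its libraries overlapped the parental-derived ones. HLA-DRB1 (−0.89), HLA-DRB5 (−0.89), HLA-DPA1 (−0.92) and HLA-DPB1 (−1.09) were called too. The calls of HLA-DRA, HLA-DRB1, HLA-DRB5 and HLA-DPA1 were each lost without the Jag1KO+rescue libraries, among the JAG1-low libraries alone and with 1 mean per condition, and those of HLA-DRA, HLA-DRB5 and HLA-DPA1 also without siJag1. HLA-DRB1 and HLA-DRB5 are close copies between which reads may be split. None of the 18 MHC class I and antigen presentation genes was called. Of 39 interferon-stimulated genes (7.69% called), IFI27 was higher (1.11 ± 0.13) and OAS2 and GBP1 were lower. GBP1 was at 10.8 to 24.3 CPM in clone-derived and 18 to 34.9 in parental-derived libraries, with an overlap. The calls of IFI27, OAS2 and GBP1 held in 35, 30 and 25 of 37 alternative fits. Those of OAS2 and GBP1 were lost without the Jag1KO+rescue libraries and without the JAG1 term. In bulk RNA, fewer cells that express a gene and less of its RNA per cell cannot be told apart.

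Secreted factors and their antagonists moved as single genes. FST, the activin antagonist follistatin, was at 28.7 to 62.1 CPM (median 45.4) against 10.7 to 25 (median 14.5) without overlap (1.54 ± 0.18, FDR 1.64e-05). IL11, an interleukin linked to bone metastasis, averaged 24.6 ± 7.35 CPM in Jag1KO, 18.2 ± 15.7 in Jag1KO+ctrl and 42 ± 3.7 in Jag1KO+rescue, against 7.48 to 9.14 in parental-derived conditions (1.91 ± 0.26, FDR 0.00011). The Jag1KO+ctrl replicates of IL11 spread widely, and its ranges overlapped between the origins. EDN1, the vasoconstrictor endothelin, was higher at 22.9 to 59 CPM against 9.05 to 28.7, and the chemokine receptor CXCR4 was lower at 0.778 to 3.54 against 1.81 to 4.36 (−1.16 ± 0.32, FDR 0.0421). The calls of IL11 and EDN1 were each lost without the Jag1KO+rescue libraries, with 1 mean per condition and among the JAG1-low libraries alone. Of 32 tested genes of TGFβ and BMP signaling, FST, INHBA and BMP2 were called higher and none lower (9.38%). Of 25 Wnt genes WNT5A, WNT7B and FZD8 were called lower and none higher (12%). Of all tested genes 2.46% were called. The calls of CXCR4, INHBA, WNT5A and WNT7B held in 17, 17, 20 and 13 of 37 alternative fits, and those of BMP2 and FZD8 in 28 each. With condition as a random block in limma, FST alone of these 6 TGFβ, BMP and Wnt genes kept its call. There INHBA (adjusted p = 0.116), BMP2 (0.0613) and WNT7B (0.0831) missed the FDR, and WNT5A (0.0208) and FZD8 (0.036) the fold threshold.

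Of 22 tested genes in a list of those known to differ between metastatic sublines of this line, 3 were higher (IL11, ADAMTS1 and IL13RA2) and 2 lower (KRT81 and CXCR4), with a median of 0.12. Thus 22.7% of that list were called, against 2.46% of all tested genes. Some genes of axon guidance were also called. ROBO2, a receptor of Slit proteins, was at 2.15 to 5.82 CPM (median 4.75) against 0.126 to 0.909 (median 0.304) (3.22 ± 0.30, FDR 7.66e-07), whereas NTN4, a netrin of basement membranes, averaged 50.6 to 79.2 CPM in the clone-derived and 90.9 to 138 in the parental-derived conditions (−0.70 ± 0.13, FDR 0.00228). SEMA5A (−1.09) and the netrin receptor NEO1 (−0.67) were lower as well. The calls of NTN4, SEMA5A and NEO1 were each lost without the Jag1KO+rescue libraries, with 1 mean per condition and among the JAG1-low libraries alone. That of NEO1 was also lost without the JAG1 term and without Jag1KO+rescue replicate 2. FOXA1, a pioneer factor of luminal breast cells, was low throughout but higher in clone-derived cultures, at 1.31 to 4.91 CPM against 0.261 to 1.26 (2.31 ± 0.27, FDR 1.65e-05), while GATA3 and KRT19 of the same marker list were not called and ESR1 stayed below 1 CPM. CD24, a surface marker whose low level defines stem-like breast cancer cells, was at 14.3 to 97.2 CPM (median 24.3) against 6.81 to 23.8 (median 7.57) (1.70 ± 0.42, FDR 0.0217). Its effect was 0.88 at high and 2.54 at low JAG1, neither called alone, and the call of CD24 held in 28 of 37 alternative fits and was lost without any 1 siJag1 replicate or without Jag1KO+rescue replicate 3. KCNN3, a calcium-activated potassium channel, was higher in every clone-derived library (14.9 to 37 against 4.59 to 9.14 CPM).

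Further lists held no called gene, among them the 4 tested Notch ligands and receptors, 15 Notch targets and modulators, 97 cell cycle genes, 23 p53 targets, 13 transcription factors and markers of epithelial-mesenchymal transition, 13 imprinted genes, 7 HOX genes, 78 ribosomal proteins, 81 genes of oxidative phosphorylation, 20 of protein folding in the endoplasmic reticulum, 11 claudins and other tight junction genes and 6 clustered protocadherins. Their medians lay between −0.32 for the protocadherins, of which 5 were negative, and 0.19 for protein folding. For NOTCH2 the effect was 0.03 ± 0.07, for NOTCH1 −0.04 ± 0.19 and for JAG2 0.25 ± 0.25. The cell cycle genes varied strongly between libraries (mean log2(CPM + 1) from 4.1 to 6.08, over 97 genes) within both origins, and with this mean as a covariate 247 genes were called higher and 226 lower.

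**Figure D3:**
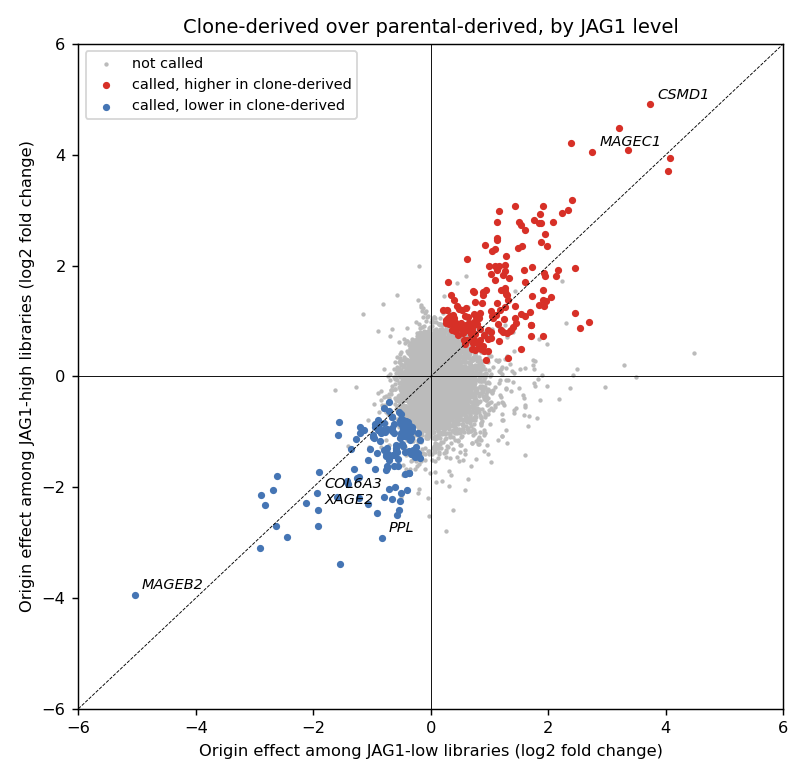
Origin effect (log2 fold change, clone-derived over parental-derived) of 12803 genes among JAG1-low libraries (horizontal axis) and JAG1-high libraries (vertical axis), with called genes in red and blue and the dashed line marking equal effects. All 174 red genes are positive and all 141 blue genes negative on both axes, and genes such as PPL lie far below the line.

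All 315 called genes had the same sign at both JAG1 levels, as the plot by JAG1 level shows, which is partly fixed by the call itself. The interaction test of origin with the JAG1 level called 52 genes whose origin effect was higher (0.406%) and 258 whose effect was lower (2.02%) at high JAG1. Only 7 of the 174 and 10 of the 141 genes above were among them, MAGEC2, IL13RA2, LRRC2, ROBO2, COL18A1, IGSF3, PPL and OAS2 included. At high JAG1 the clone-derived origin is represented by Jag1KO+rescue alone, so the JAG1 level cannot be told apart from that condition here. For COL6A1, a second chain of collagen VI, it averaged 20.8 ± 0.176 CPM against 33.8 ± 7.44 in Jag1KO and 40.4 ± 8.13 in Jag1KO+ctrl, and parental-derived values were 54.5 ± 10.6 in WT, 57.9 ± 8.11 in siCtrl and 27.7 ± 3.5 in siJag1 (interaction −1.90, FDR 0.00253). The clone-derived means of COL6A1 were thus below the parental-derived ones at high JAG1 and above them at low JAG1. PRKCI, an atypical protein kinase C, was at 95.7 ± 2.67 CPM in Jag1KO+rescue and between 60.1 and 63.6 in the other conditions (interaction 0.61, FDR 0.02).

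The genes with a lower effect at high JAG1 had a median GC content of 62.6% in the longest annotated transcript (GENCODE) and those with a higher effect 38.9%, against 47.4% over all tested genes, 47.5% over the 174 and 50.5% over the 141 genes of the origin comparison. The level of the 1520 genes with at least 60% GC, as the median of log2(CPM + 1) relative to the mean of the libraries, was −0.0615, −0.215 and −0.204 in Jag1KO+rescue, −0.22 in siJag1 replicate 2 and between −0.0759 and 0.173 in the other libraries. Its part in the interaction was not tested. Leaving out single libraries gave between 0 and 195 higher and between 8 and 453 lower interaction calls, with 0 and 8 without siJag1 replicate 1 and 1 and 17 without Jag1KO+rescue replicate 3.

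The 3 clone-derived conditions were at different distances from the parental ones. Over the 174 higher genes the median distance from the mean of the parental-derived conditions was 0.65 in Jag1KO, 0.85 in Jag1KO+ctrl and 0.93 in Jag1KO+rescue (log2(CPM + 1)), and Jag1KO was the nearest condition for 100 of them. Over the 141 lower genes the distances were −0.59, −0.68 and −0.92, and Jag1KO was the nearest for 69. The genes were called with a model in which Jag1KO+rescue is compared with WT and siCtrl, which bears on its distance, and the order was not tested.

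No chromosome as a whole was shifted, with medians from −0.06 (chromosome 15) to 0.04 (chromosome 6), but neighboring genes on some chromosomes moved together. Medians over 20 neighboring tested genes passed 0.25 on the log2 scale in 68 and −0.25 in 114 of 12274 windows, and joining overlapping windows gave 12 runs, which were looked for after the data were seen and are described without a test. The runs were chosen by these same effects. Their medians and their shares of positive, negative or FDR-passing genes were largely fixed by that choice and are no support for them. The choice also bears on their library medians. The longest in genes spanned the outer short arm of chromosome 4, from 53321 to 31146800 (hg38), between ZNF595 and PCDH7. There 98 of 100 tested genes had a negative effect (47.1% of all tested genes did), with a median of −0.30 and quartiles of −0.41 and −0.18, which is a level of 0.812 times that of parental-derived cultures. The remaining 368 genes of chromosome 4 had a median of 0.05, with 12 called higher and none lower. The 2 positive genes were SLIT2 (0.32) and AFAP1-AS1 (0.12), neither called.

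**Figure D4:**
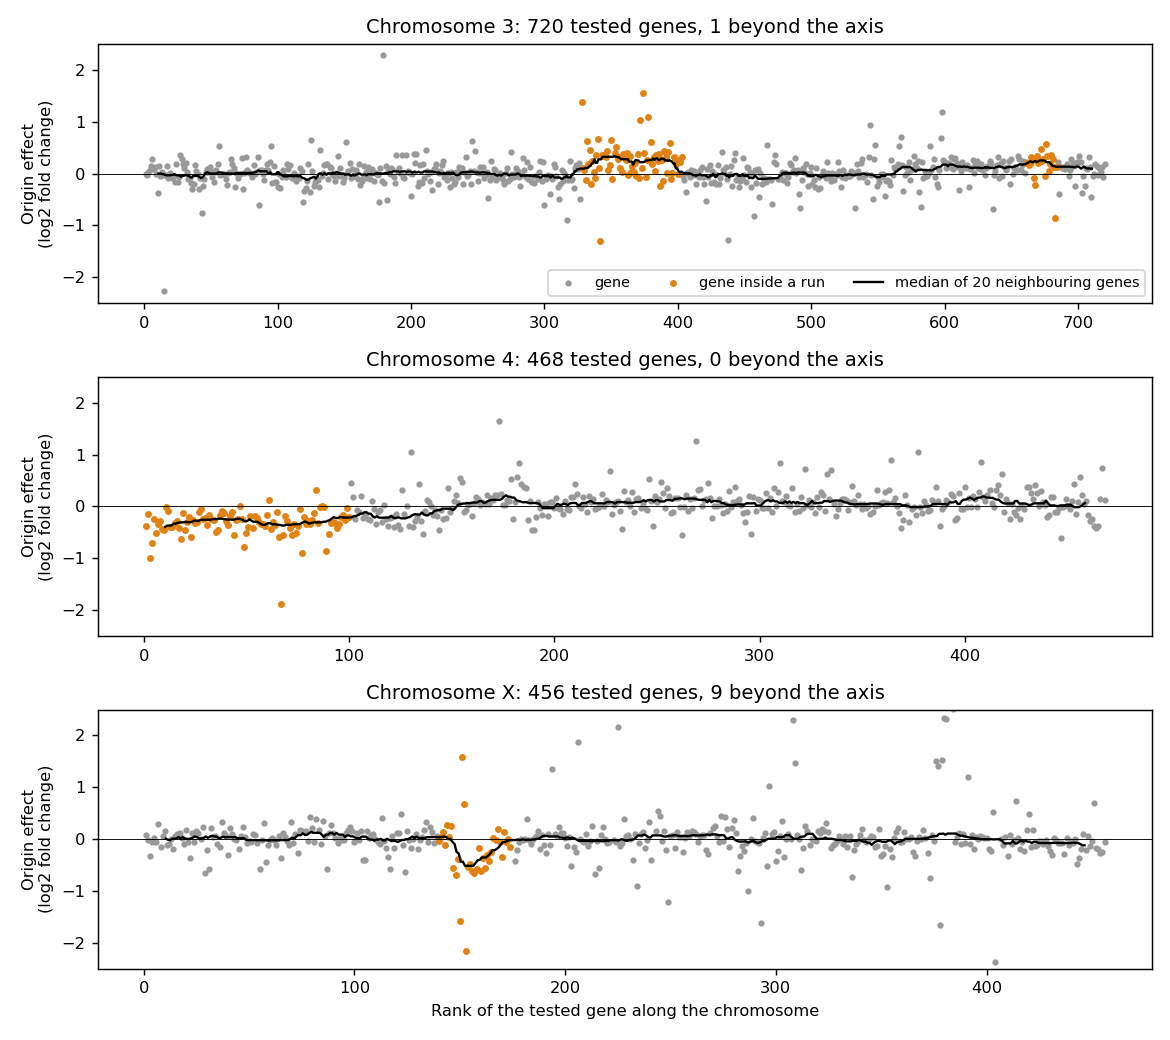
Origin effect (log2 fold change, vertical axis) of each tested gene by its rank along chromosomes 3, 4 and X, with genes inside a run in orange and the running median of 20 genes as a black line. On chromosome 4 the line stays below 0 over the first 100 genes and returns to about 0, on chromosome 3 it rises in the middle, and on X it dips once.

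In this run on chromosome 4, ZNF518B, ZNF141, EVC, CTBP1-DT, ABCA11P and WDR1 were called lower, and 27 of 100 genes passed the FDR without the fold threshold, all of them negative. Of all tested genes 4.85% passed that FDR in either direction. WDR1, which promotes actin filament disassembly, averaged 541 to 634 CPM in the clone-derived and 789 to 894 in the parental-derived conditions (−0.59 ± 0.08, FDR 0.000127), and EVC, a protein of the primary cilium, 42.7 to 55.1 against 77.5 to 82.6 (−0.79 ± 0.10, FDR 6.48e-05). HTT, the gene of huntingtin, was lower by less than the fold threshold (−0.36, FDR 0.0151). The median over the 100 genes, as log2(CPM + 1) relative to the 18-library mean, was −0.0276, −0.0906 and −0.0675 in the Jag1KO libraries, between −0.174 and −0.129 in Jag1KO+ctrl and between −0.197 and −0.145 in Jag1KO+rescue, and between 0.0731 and 0.166 in the 9 parental-derived libraries. The origins did not overlap, and the Jag1KO pool was nearest to the parental cultures. The median effect was −0.36 among JAG1-high and −0.26 among JAG1-low libraries and stayed between −0.36 and −0.26 over 37 alternative fits, and the genes had a median GC content of 48.9%.

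**Figure D5:**
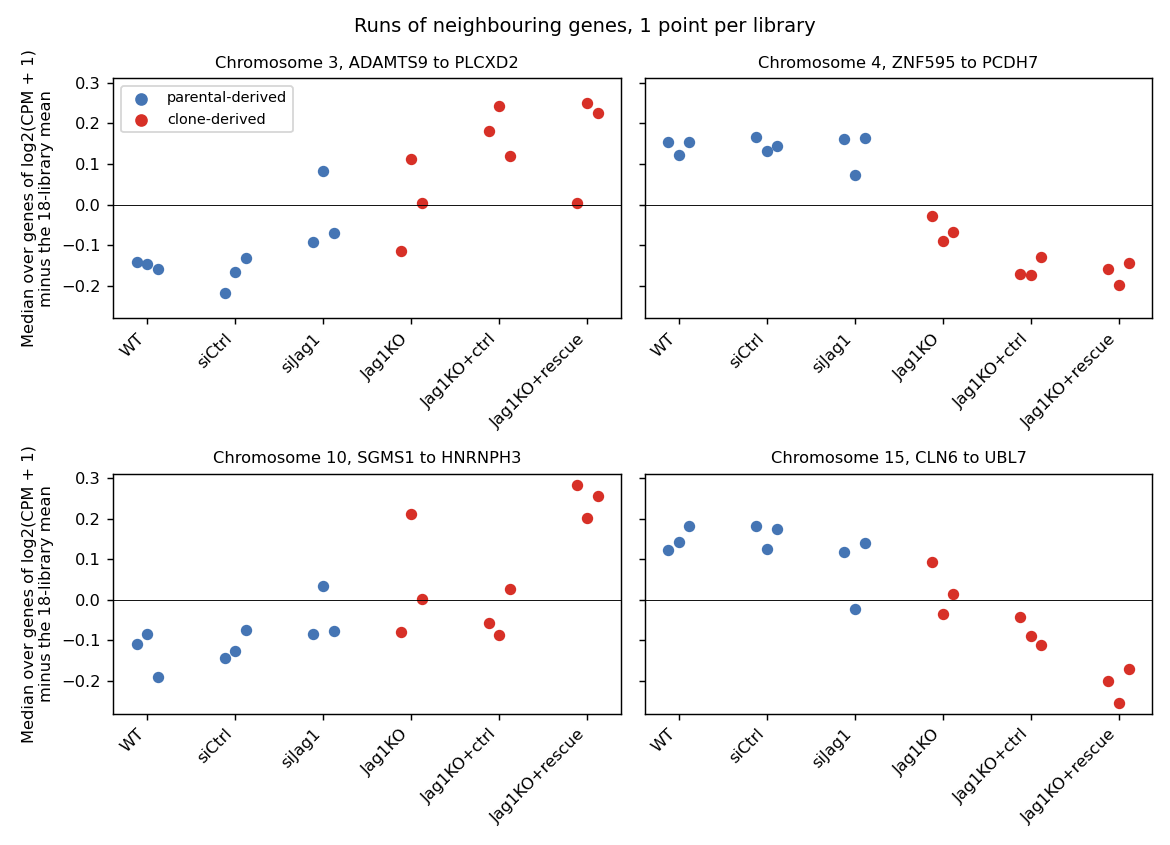
Median over the genes of 4 runs of log2(CPM + 1) minus the mean of the 18 libraries (vertical axis), 1 point per library, by condition, in blue for parental-derived and red for clone-derived. On chromosome 4 all red points lie below all blue points; in the runs on chromosomes 3, 10 and 15 the colors overlap.

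The next longest run, on chromosome 3 from ADAMTS9 to PLCXD2 (64515654 to 111727007), had 63 of 76 genes positive and a median of 0.26. Of all tested genes 52.9% were positive. The run holds ADAMTS9, ROBO2, FILIP1L and MITF among 6 genes called higher and EIF4E3 as the only one called lower. Its library medians spanned −0.113 to 0.251 in clone-derived and −0.219 to 0.0829 in parental-derived cultures. Its median was 0.34 at high and 0.12 at low JAG1. On the X chromosome, the run from PRAF2 to FAM104B (49071161 to 55161185) had 24 of 35 genes negative (47.1% of all tested genes were). There XAGE2, SHROOM4, CLCN5, FAM156A and FAM156B were called lower and GSPT2 higher, the FAM156 genes being close copies. The run on chromosome 6 from AGER to SLC39A7 (32180969 to 33204437) is the MHC class II region, and its 6 called genes are the 5 above and the pseudogene HLA-DRB6. The other 8 runs had medians between −0.27 and 0.25, and in each of them, as in those on chromosomes 3, 6 and X, the library medians of the origins overlapped, as the plot of 4 runs by library shows for 3.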

How the data were processed

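Messenger RNA from 18 spheroid cultures was sequenced from stranded libraries. The authors aligned the reads to hg38 (the aligner is not given in the sources used here), counted those that mapped uniquely per gene (the submitters' processing notes name featureCounts) and deposited raw counts for 21411 genes. The deposited CPM signal was made by the authors from these counts with TMM (edgeR 3.28.0). RPKM values, of which 3 columns matched no label, were not used. Whether counting used strand is not stated, so genes overlapping on opposite strands are uncertain. The 292 genes without a symbol stayed in the fit and held 0.0442% of the reads or less in each library. Positions and promoters came from RefSeq (GRCh38.p14, the coordinates of hg38), which matched 21048 of the gene numbers.

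Counts were fitted with edgeR 4.0.16 in R 4.3.3 (TMM, robust quasi-likelihood test, terms for origin and JAG1 level, Benjamini-Hochberg FDR over 12803 genes). The SE is the absolute log2 fold change divided by the square root of F. DESeq2 1.42.0, and limma 3.58.1 on log2(CPM + 1), were alternatives, and the fits were tested on simulated data. No pair of replicates of the same condition agreed within sampling noise, and pairs across conditions were not compared in this way. The labels call the replicates biological. Floors cover counting error only.

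The comparison, gene lists and tests were chosen with earlier results of these data known. Named were the 12 genes with the largest change in each direction among called, separated genes with a mean of at least 5 CPM in the higher origin, up to 4 called members of each list by p, members of lists with at most 6 tested, up to 4 interaction genes in each direction by p, and JAG1. All other genes, among them those kept in every fit, those of the chromosome runs and further members of the cancer-testis list, were named after their values were seen.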

Additional observations from a re-analysis of the deposited data

Results flagged for a closer look

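Among the 9 libraries of an origin, 13 of 218 sets of values (5.96%) held a library far from the others, where chance gives about 1 in 20. Of these, 8 were siJag1 replicate 2, which had 11.2 CPM of GATA3, 4.16 of FZD8, 559 of CD44, 16.9 of KRT81, 93.4 of KRT8, 1.73 of INHBE, 21.7 of CDH24 and 24.9 of NOTCH1. This library also had the highest cell cycle mean of the parental-derived ones (6.07), and the part of that in its values was not tested. The others were FOXA1 in WT replicate 1 (1.26 CPM), CD24 in WT replicate 3 (23.8), EDN1 in siJag1 replicate 3 (28.7), AXL in Jag1KO+ctrl replicate 1 (810) and KHDRBS3 in Jag1KO+rescue replicate 1 (60.1).

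The origin effect differed with the JAG1 level, by the interaction test of edgeR, in the genes with the smallest p in each direction. The differences (log2, effect at high minus effect at low JAG1) were 0.657 for KHDRBS3 (FDR 0.0121), 0.606 for PRKCI (0.02), 0.713 for DDX18 (0.0213) and 0.729 for UTP11 (0.0213), and −1.9 for COL6A1 (0.00253), −1.03 for PIGQ (0.00558), −1.68 for LTBP3 (0.0062) and −1.65 for RHPN1 (0.0062).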

How the results depend on the processing

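No call of the origin comparison changed sign in any alternative. The 174 higher and 141 lower calls became 102 and 63 at a fold above 2, 39 and 22 with 1 mean per condition, 403 and 738 in JAG1-high and 33 and 13 in JAG1-low libraries alone, 96 and 35 without the condition Jag1KO+rescue, 112 and 79 without siCtrl, and 283 and 519 without siJag1. Lower calls became 85 without WT, 215 without Jag1KO+ctrl and 226 with the cell cycle mean as covariate. Leaving out 1 library gave 136 to 195 higher and 87 to 161 lower calls, the 87 without Jag1KO+rescue replicate 3. For the interaction (52 and 258) it gave 0 to 195 and 8 to 453. Separated genes (62 higher, 65 lower) numbered 62 to 87 and 66 to 109 without 1 library, and, with fewer libraries to separate, 105 and 123 without Jag1KO, 97 and 107 without Jag1KO+rescue, 100 and 137 without Jag1KO+ctrl and 113 and 172 without siJag1. Beyond fewer samples, the cause was not tested. DESeq2 called 206 and 178 genes, limma 140 and 132.

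With the replicate block, 208 and 167 genes were called for origin and 158 and 518 for the interaction. The numbers are shared across groups in the labels, and same-numbered libraries of the 2 origins deviated together (r above 0.1) in 20 of 27 pairs. The median r was 0.461 (−0.465 to 0.8). Most same-numbered libraries thus varied together, but the main fits did not take them as paired. What they share was not tested.

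Of the 73 called named genes, 17 kept their call in all 37 alternatives, 48 lost it with 1 mean per condition, 55 in JAG1-low libraries alone, 38 without Jag1KO+rescue and 0 with the block. CDH11, not called (0.10), was at −0.638 in JAG1-high libraries alone. Genes below the CPM minimum were not tested, and 1 derivation limits every comparison.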
